A study of Mus musculus with 12 samples.

Results

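The genes described here build the centromere and the kinetochore or run the spindle checkpoint, and there are 44 of them among the 55401 genes of the count table. They were chosen by symbol: 20 have a symbol made of Cenp and 1 further letter, and 24 were taken by name from the outer kinetochore, the checkpoint, the chromosomal passenger complex, the Ska complex and the shugoshins, with Aurka. Their counts come from bulk RNA sequencing of cells washed out of the mouse peritoneal cavity, with 4 libraries in each of 3 groups. The ID8-FSHR mice (C57BL/6J) carried an ovarian cancer line labelled ID8 (defb29/Vegf-a) FSHR, placed into the peritoneum 7 days before the lavage, where FSHR is the follicle-stimulating hormone receptor. The ID8 mice of the same strain were given the line labelled ID8 (defb29/Vegf-a), with no FSHR in the label, at the same time, and the uninjected mice of that strain received no cells. ID8 is a line from mouse ovarian surface epithelium, and both injected lines carry the Defb29 and Vegf-a label. The series text gives 4000000 injected cells and the sample protocol 5000000. The labels give no age, no promoter for the receptor and no word on whether a line is 1 clone. They also do not say whether each library came from 1 mouse, so p-values measure the spread between these libraries.

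Libraries held 47419608 to 64333677 counts, and values below are CPM, a unit that scales each count to its effective library size. The Fshr row did not separate the tumour groups, with 0, 0, 2 and 7 counts in the ID8-FSHR libraries, 0, 0, 2 and 0 counts in the ID8 libraries and 0 counts in every uninjected library. This row holds reads assigned to the mouse gene, and the line label gives no species or sequence of the receptor. The counts thus neither bear out the FSHR label nor show that the receptor is absent. ID8-FSHR is used throughout as the name on the label. The tumour samples are labelled as a cell line, yet 10 markers of large peritoneal macrophages summed to 4640 to 7680 CPM in ID8-FSHR lavages, 6100 to 7770 CPM in ID8 lavages and 13500 to 16600 CPM in uninjected lavages, so each library is a mixture. ID8-FSHR replicate 2 stood apart on the first principal component, at -24.8, against -68.7 to -60.7 in the other tumour libraries. It also had the lowest sum of 12 mesothelial and ovarian surface markers, 991 CPM, against 2260 to 2550 CPM in the other ID8-FSHR libraries.

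As background, the centromere is marked by nucleosomes that hold the histone variant CENP-A. A constitutive network of CENP proteins sits on them through the cell cycle and, in mitosis, recruits the outer kinetochore, whose Ndc80, Mis12 and Knl1 complexes bind spindle microtubules. Kinetochores that lack microtubules start the spindle checkpoint, in which Mad and Bub proteins hold back the anaphase promoting complex, while the chromosomal passenger complex with Aurora B corrects wrong attachments and shugoshins protect cohesin at the centromere. Many of these genes are transcribed mainly in G2 and mitosis.

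In ID8-FSHR lavages 37 of the 44 genes rose relative to ID8 lavages, with folds of up to 4.08. The 37 spanned every layer of the kinetochore, from Cenpa, the histone variant itself, at 3.5-fold, through Ndc80, a microtubule-binding subunit, at 3.03-fold, to the checkpoint kinase Bub1 at 3.86-fold. Among all 16915 genes tested, 6.04% were called higher and 5.56% lower at an edgeR adjusted p under 0.05. None of the 44 genes was called lower by edgeR, by DESeq2 or by limma-voom, and edgeR gave 0 lower genes at an unadjusted p under 0.05 too. Their median log2 fold change was 1.52, a 2.88-fold difference, against -0.01 over all genes tested. In 39 of the 44 genes every ID8-FSHR library lay above every ID8 library, a pattern found in 7.74% of all genes tested, with the opposite pattern in 10.8%. The 7 genes not called were Bub3, Mad1l1, Zwint, Cenpb, Cenpj, Cenpv and Cenpx. Without ID8-FSHR replicate 2 the count was again 37. In the same comparison all 5 NK cell markers and 4 of 10 T cell markers were higher and 5 of 12 mesothelial and ovarian surface markers lower, and their part in the result was not tested. Neither Defb29 nor Vegfa, named on both line labels, was called in this comparison. In bulk samples such as these, fewer cells of a type and less RNA per cell cannot be told apart.

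**Figure D1:**
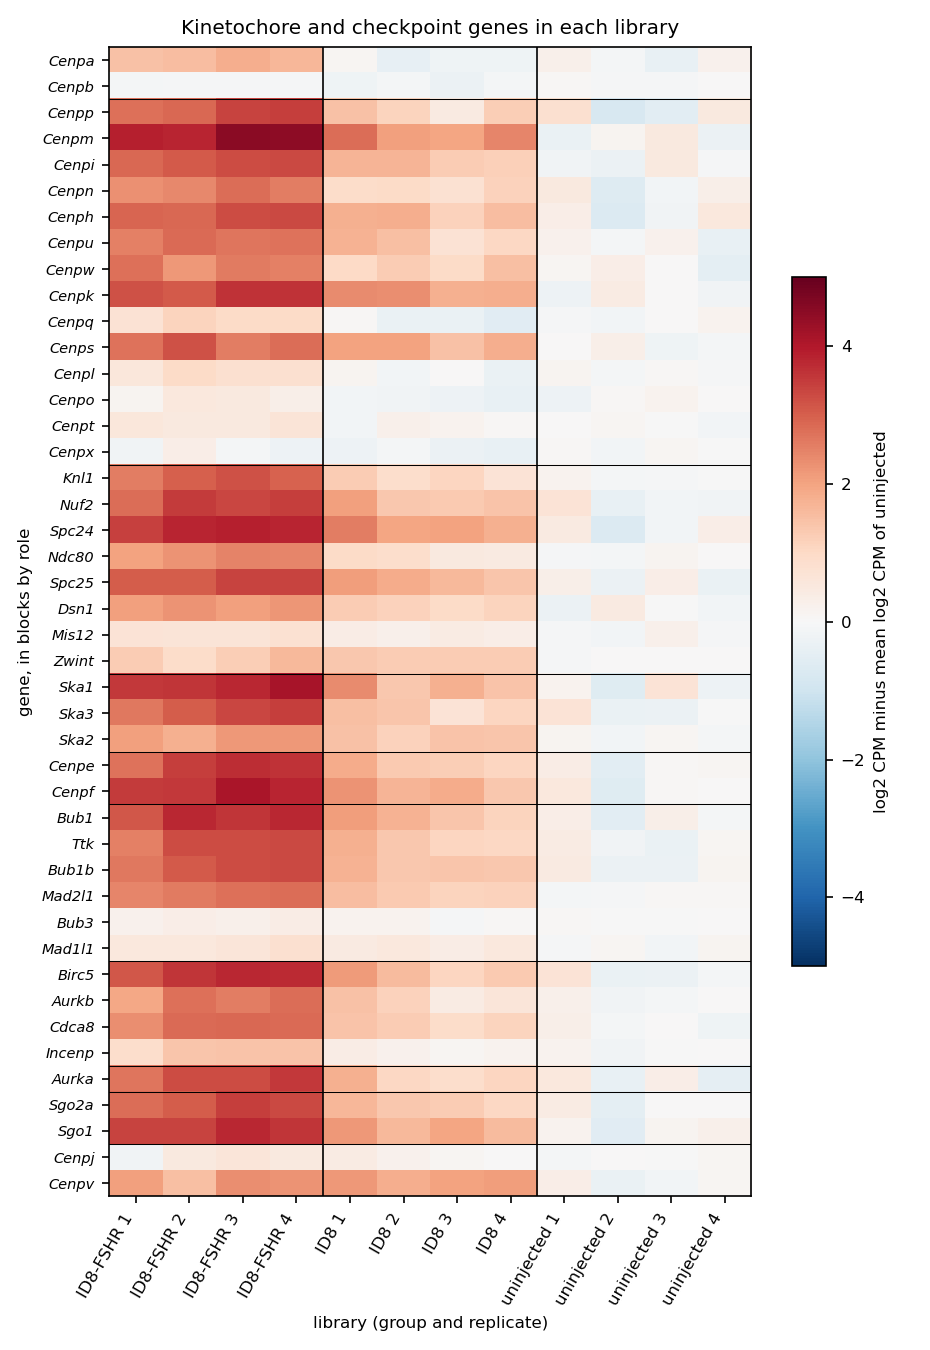
Each row is a gene, in blocks by role, and each column a library, with ID8-FSHR libraries first, then ID8 and uninjected. Colour gives the log2 CPM minus the mean log2 CPM of the 4 uninjected libraries. Most rows are darkest in the ID8-FSHR columns and paler in the ID8 columns, while Cenpb, Cenpx and Bub3 stay near the uninjected level in all 12 libraries.

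Summed over the 44 genes, the level was 1290, 1530, 1700 and 1700 CPM in ID8-FSHR replicates 1 to 4, against 851, 753, 701 and 703 CPM in ID8 and 536, 469, 503 and 507 CPM in uninjected lavages. The 3 groups did not overlap. The means were 1550 ± 196 CPM in ID8-FSHR lavages, 752 ± 70.2 CPM in ID8 lavages and 504 ± 27.7 CPM in uninjected lavages (SD, n = 4 each), so ID8-FSHR lavages held 2.06 times the ID8 level and 3.08 times the uninjected level. The sum was 1.49 times higher in ID8 lavages than in uninjected ones. A sum is dominated by the more abundant genes, several of which moved little.

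The stretches before the transcription starts of 7 genes are shown because these genes moved by very different amounts while most of them carry the same short elements. They were chosen after their values were seen. Each line gives the 120 bases before the start on the strand of the gene, from the RefSeq promoter table for GRCm38.p6. Capitals mark CCAAT (bound by NF-Y), the cell cycle homology region letters TTTGAA or TTTAAA, and the E2F-type letters GCGGGAA or GCGCGAA, on either strand. The first 4 genes rose in ID8-FSHR relative to ID8 lavages, and the last 3 did not pass the test.
Bub1 (chr2:127831860-127831979, minus strand): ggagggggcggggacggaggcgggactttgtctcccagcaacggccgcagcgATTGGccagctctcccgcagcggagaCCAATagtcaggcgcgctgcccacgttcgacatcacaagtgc
Aurka (chr2:172370571-172370690, minus strand): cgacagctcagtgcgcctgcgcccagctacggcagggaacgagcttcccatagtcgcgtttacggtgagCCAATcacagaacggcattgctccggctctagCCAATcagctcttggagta
Cenpa (chr5:30666766-30666885, plus strand): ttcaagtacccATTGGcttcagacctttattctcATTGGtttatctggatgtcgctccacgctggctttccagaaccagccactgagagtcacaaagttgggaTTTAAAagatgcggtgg
Cdca8 (chr4:124936918-124937037, minus strand): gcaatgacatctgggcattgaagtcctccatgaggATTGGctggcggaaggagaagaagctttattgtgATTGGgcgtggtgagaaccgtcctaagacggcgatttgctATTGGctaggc
Zwint (chr10:72654726-72654845, plus strand): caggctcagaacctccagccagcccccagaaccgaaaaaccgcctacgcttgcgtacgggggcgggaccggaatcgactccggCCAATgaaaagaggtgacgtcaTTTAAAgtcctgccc
Bub3 (chr7:131560250-131560369, plus strand): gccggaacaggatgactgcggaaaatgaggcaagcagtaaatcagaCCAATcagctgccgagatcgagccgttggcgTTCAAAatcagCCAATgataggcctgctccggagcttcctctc
Cenpb (chr2:131180068-131180187, minus strand): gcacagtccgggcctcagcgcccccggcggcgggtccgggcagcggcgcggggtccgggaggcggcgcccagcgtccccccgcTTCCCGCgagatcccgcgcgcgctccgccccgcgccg

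In these stretches Bub1 and Aurka held CCAAT letters in 2 places and Cdca8 in 3. Cenpa had them in 2 places, with TTTAAA at 17 bases before the RefSeq start. Zwint and Bub3, which did not pass the test, held CCAAT letters and a cell cycle homology match too, while Cenpb held only an E2F-type match. Within 50 bases past the RefSeq start, Aurka, Cenpa and Cdca8 also had cell cycle homology letters, which these stretches leave out. The start used for Aurka was not found in the annotated transcripts of GENCODE M21, so its window may lie off the main start. The stretch of Bub3 lies wholly past its gene start in that annotation (131560222), and that of Cenpa almost wholly past its own (30666777). That of Cdca8 lies inside its gene, which starts at 124939311 on the minus strand. These stretches may therefore not be upstream sequence. Bub3 also has another RefSeq window, not shown.

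Over the full windows of 250 bases before to 50 after a start, 40 of the 44 genes had an entry. Of their 46 windows, 39 had the bases just after the start in an annotated transcript of the gene. CCAAT occurred in 25 of these 40 genes, 62.5%, against 41.1% of all 27025 genes with a window. These 27025 genes were not limited to genes tested in the fit, while all of the 40 were tested. The letters TTTGAA were in 35% of the 40 genes and 20.2% of all genes, and TTTAAA in 8 of the 40 genes and 14.9% of all genes. GCGGGAA was found in 10 of the 40 genes, 25.0%, against 5.29% of all genes, and GCGCGAA in 1 of the 40 genes, against 1.81% of all genes. TGACG, the core of a cyclic AMP response element, was in 32.5% of the 40 genes and 23.0% of all genes. Of the 33 genes with a window that rose in ID8-FSHR relative to ID8 lavages, 66.7% had CCAAT, and of the 7 that were not called, 42.9% did. TTTGAA or TTTAAA was in 48.5% of these 33 genes, 28.6% of these 7 and 30.6% of all genes. A letter match is a description and not a binding site, and windows of neighbouring or repeated starts share bases.

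**Figure D2:**
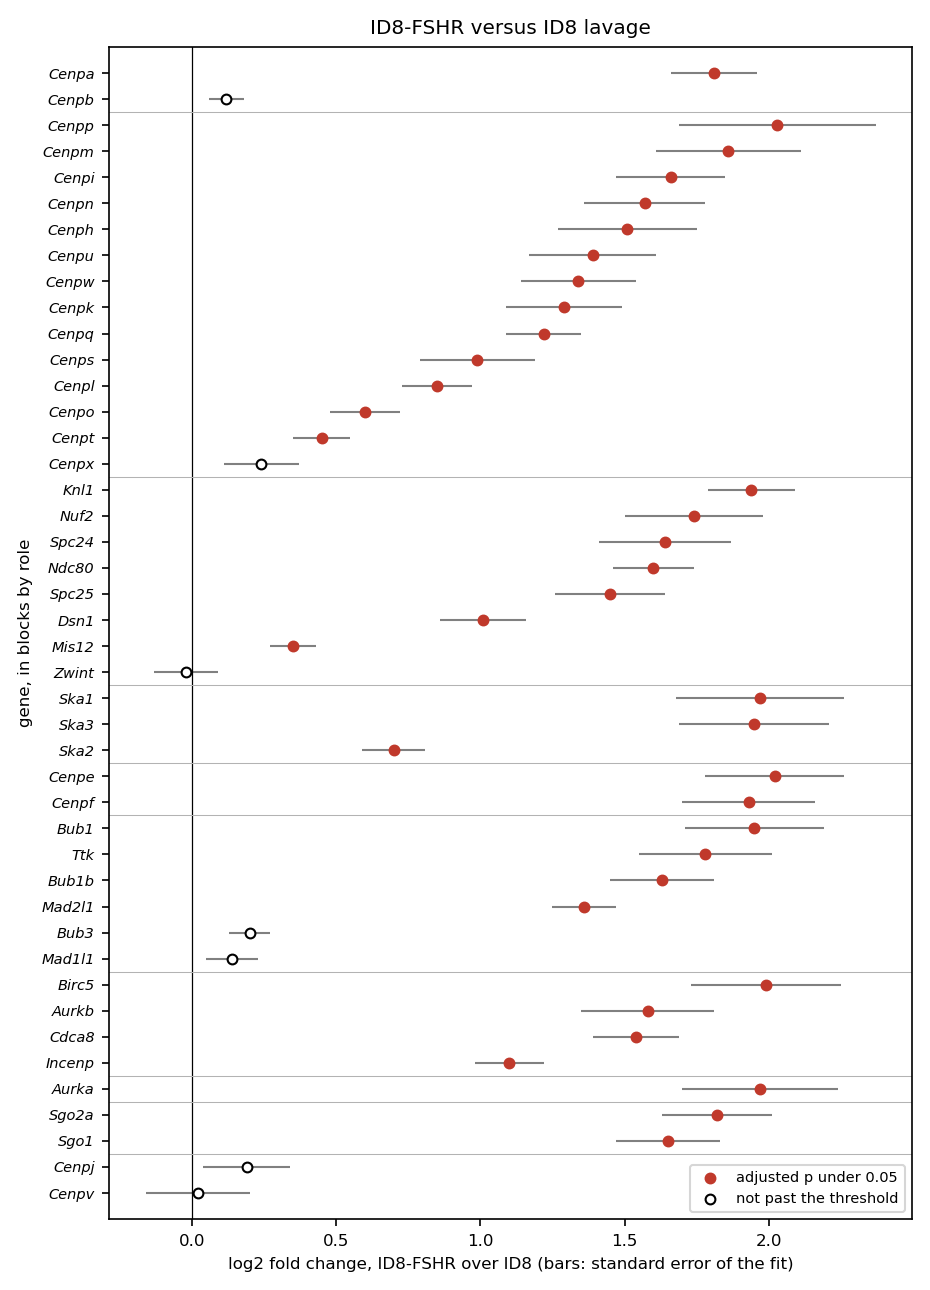
Points are log2 fold changes of ID8-FSHR over ID8 lavages and bars their standard errors from the edgeR fit, with genes in blocks by role. Filled points passed an adjusted p under 0.05. Of the 44 genes, 37 are filled and lie between 0.35 and 2.03, and 7 open points lie between -0.02 and 0.24.

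At the base of the kinetochore, the histone variant and the DNA-binding protein of the centromere differed. Cenpa had 29.1, 31.3, 37.2 and 33.9 CPM in ID8-FSHR replicates 1 to 4, against 11.3, 8.00, 9.10 and 9.14 CPM in ID8 and 12.7, 10.0, 8.26 and 12.2 CPM in uninjected lavages. All ID8-FSHR libraries lay above the rest, while ID8 and uninjected libraries overlapped. The log2 fold change was 1.81 over ID8 (SE 0.15, edgeR adjusted p = 3.46e-05) and 1.61 over uninjected (SE 0.15, edgeR adjusted p = 8.16e-07). In ID8 lavages it was -0.20 relative to uninjected lavages (SE 0.15, edgeR adjusted p = 0.242). Cenpb, which binds a satellite DNA motif, had 111, 115, 114 and 114 CPM in ID8-FSHR lavages, 101, 110, 97.7 and 110 CPM in ID8 lavages and 123, 115, 115 and 120 CPM in uninjected lavages. Its fitted folds between groups did not exceed 1.13 in either direction. The ID8-FSHR libraries lay just above the ID8 libraries, but the difference did not pass the test (log2 0.12, SE 0.06, edgeR adjusted p = 0.19).

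The constitutive centromere network is represented by 14 genes, of which 13 rose in ID8-FSHR relative to ID8 lavages, with a median log2 fold change of 1.31 and a range of 0.24 to 2.03. Its subunits spread widely. Cenpp, of the CENP-O group, had the largest fold of the 44 genes, with 4.11, 4.40, 6.37 and 6.63 CPM in ID8-FSHR replicates 1 to 4, against 1.66, 1.33, 0.836 and 1.42 CPM in ID8 and 1.07, 0.351, 0.424 and 0.850 CPM in uninjected lavages. Every ID8-FSHR library was higher than every other library (log2 2.03 over ID8, SE 0.34, edgeR adjusted p = 0.0022), at a low level, and 12.6% of its exonic bases overlap Aspn or Ippk. Its partner Cenpo moved less, with 11.4, 15.1, 14.8 and 12.7 CPM in ID8-FSHR lavages, 9.43, 9.31, 8.76 and 8.09 CPM in ID8 lavages and 8.64, 10.8, 11.9 and 10.7 CPM in uninjected lavages. That was a log2 fold change of 0.60 over ID8 (SE 0.12, edgeR adjusted p = 0.00908), and 22.5% of the exonic bases of Cenpo overlap Adcy3 or Ptrhd1.

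Cenpm, of the CENP-H and CENP-I group, had 9.52, 8.99, 14.7 and 14.4 CPM in ID8-FSHR lavages, 4.44, 2.64, 2.51 and 3.48 CPM in ID8 lavages and 0.513, 0.701, 0.909 and 0.523 CPM in uninjected lavages. The groups were separate, and the log2 fold change over ID8 was 1.86 (SE 0.25, edgeR adjusted p = 0.000477). Cenpk of the same group had 9.01, 8.10, 11.9 and 12 CPM in ID8-FSHR lavages, 5.03, 4.88, 3.39 and 3.41 CPM in ID8 lavages and 0.83, 1.29, 0.990 and 0.871 CPM in uninjected lavages. It was 2.45-fold higher in ID8-FSHR than in ID8 lavages. Cenpi rose 3.16-fold and Cenph 2.85-fold in the same comparison, so all 4 genes of that group passed the test.

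The CENP-A reader Cenpn rose 2.97-fold in ID8-FSHR relative to ID8 lavages and its partner Cenpl 1.81-fold. Cenpq had 18.6, 24.5, 21.5 and 21.8 CPM in ID8-FSHR lavages, 11.7, 8.95, 8.90 and 7.55 CPM in ID8 lavages and 10.7, 10.3, 11.4 and 12.5 CPM in uninjected lavages. Only its ID8-FSHR libraries were set apart, at 2.33 times the ID8 level. Cenpu, bound to Cenpq in the same group, rose 2.61-fold, with 26.7% of its exonic bases overlapping Primpol.

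Among the histone-fold subunits Cenpw rose 2.52-fold, Cenps 1.98-fold and Cenpt 1.37-fold in ID8-FSHR relative to ID8 lavages. The call on Cenpt was lost without ID8 replicate 4 (edgeR adjusted p = 0.0546). Cenpx, the partner of Cenps, was not called in any comparison. It had 11.6, 16.6, 12.5 and 11.2 CPM in ID8-FSHR lavages, 11.0, 12.2, 10.9 and 10.1 CPM in ID8 lavages and 13.6, 12.1, 14 and 13.2 CPM in uninjected lavages. Its libraries overlapped between groups, with ID8-FSHR replicate 2 the highest of all 12.

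In the outer kinetochore, 7 of the 8 genes of the Knl1, Mis12 and Ndc80 complexes rose in ID8-FSHR relative to ID8 lavages, with a median log2 fold change of 1.53. Knl1, the scaffold that binds Bub1 and Bub3, had 39.0, 53.6, 60.5 and 51.5 CPM in ID8-FSHR replicates 1 to 4, against 16.3, 12.4, 14.1 and 10.6 CPM in ID8 and 7.48, 6.29, 6.38 and 6.62 CPM in uninjected lavages. The lowest ID8-FSHR library lay well above the highest ID8 library (log2 1.94, SE 0.15, edgeR adjusted p = 2.86e-05). Zwint, which binds Knl1, behaved differently, with 83.6, 65.7, 82.0 and 106 CPM in ID8-FSHR lavages, 89.4, 83.4, 83.2 and 84.8 CPM in ID8 lavages and 33.5, 34.8, 35.4 and 35.2 CPM in uninjected lavages. The tumour groups overlapped (log2 -0.02, SE 0.11, edgeR adjusted p = 0.937), both well above uninjected lavages. The sign of that value turned under 3 of the alternatives tried.

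Ndc80 had 25.9, 31.2, 36.2 and 35.3 CPM in ID8-FSHR lavages, 12.7, 11.8, 9.08 and 8.86 CPM in ID8 lavages and 6.18, 6.09, 7.11 and 6.67 CPM in uninjected lavages. The groups were separate, and the log2 fold change over ID8 was 1.6 (SE 0.14, edgeR adjusted p = 4.75e-05). The other subunits of its complex rose by similar folds, Nuf2 3.33, Spc24 3.11 and Spc25 2.74 over ID8 lavages. Mis12 had 47.8, 46.2, 46.2 and 51.4 CPM in ID8-FSHR lavages, 38.4, 35.2, 39.7 and 37.4 CPM in ID8 lavages and 29.1, 27.3, 35.5 and 28.4 CPM in uninjected lavages. It was 1.27-fold higher in ID8-FSHR than in ID8 lavages (edgeR adjusted p = 0.0202), a call lost without ID8 replicate 2 (0.0515), ID8 replicate 4 (0.0606) or ID8-FSHR replicate 4 (0.0614). Dsn1 of the same complex rose 2.02-fold, and 7.7% of the exonic bases of Mis12 overlap Derl2.

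All 3 Ska genes, whose complex keeps kinetochores on growing and shrinking microtubule ends, rose in ID8-FSHR relative to ID8 lavages. Ska1 had 7.18, 7.36, 8.45 and 10.8 CPM in ID8-FSHR lavages, 3.21, 1.59, 2.11 and 1.65 CPM in ID8 lavages and 0.710, 0.406, 0.990 and 0.523 CPM in uninjected lavages. The groups were separate, at a 3.93-fold difference between the tumour lavages. Ska3 rose 3.87-fold and Ska2 1.62-fold, with 10.1% of the exonic bases of Ska2 overlapping Gm11491.

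Both genes of the corona and motor group, which forms the outermost kinetochore layer, rose in ID8-FSHR relative to ID8 lavages. Cenpe, a kinesin that moves chromosomes to the spindle equator, had 57.4, 95.7, 114 and 106 CPM in ID8-FSHR replicates 1 to 4, against 32.0, 21.5, 20.4 and 18.3 CPM in ID8 and 11.4, 6.07, 9.09 and 9.32 CPM in uninjected lavages. ID8-FSHR replicate 1 was the lowest of its group and ID8 replicate 1 the highest of its own, and the groups still did not overlap (log2 2.02, SE 0.24, edgeR adjusted p = 0.000243). Cenpf had 111, 112, 166 and 137 CPM in ID8-FSHR lavages, 46.2, 31.8, 35.3 and 24.9 CPM in ID8 lavages and 14.1, 6.33, 10.2 and 9.76 CPM in uninjected lavages. It rose 3.81-fold over ID8 lavages.

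The 6 checkpoint genes fell into a group of 4 that rose in ID8-FSHR relative to ID8 lavages and a pair, Bub3 and Mad1l1, that did not pass the test. The kinase Bub1 had 33.1, 53.1, 46.4 and 53.6 CPM in ID8-FSHR replicates 1 to 4, against 16.6, 12.9, 10.2 and 8.44 CPM in ID8 and 4.93, 2.68, 4.83 and 3.59 CPM in uninjected lavages. Groups were separate, with a log2 fold change over ID8 of 1.95 (SE 0.24, edgeR adjusted p = 0.000264). Bub1b, or BubR1, a subunit of the mitotic checkpoint complex, had 50.9, 69.0, 79.2 and 80.2 CPM in ID8-FSHR lavages, 27.3, 20.8, 21.2 and 20.9 CPM in ID8 lavages and 11.1, 6.72, 6.65 and 9.06 CPM in uninjected lavages. It rose 3.09-fold over ID8 lavages. Bub3, which carries Bub1 and Bub1b to Knl1 and whose promoter stretch is shown above, had 74.1, 79.7, 76.6 and 82.9 CPM in ID8-FSHR lavages, 71.5, 73.1, 61.5 and 65.8 CPM in ID8 lavages and 66.2, 62.8, 62.7 and 63.9 CPM in uninjected lavages. Its ID8-FSHR libraries all lay above the ID8 ones by a narrow margin (log2 0.20, SE 0.07, edgeR adjusted p = 0.06), and DESeq2 called it higher (adjusted p = 0.0155), as did edgeR without ID8 replicate 2 (0.0465) or ID8-FSHR replicate 1 (0.0398).

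Mad2l1, the inhibitor of Cdc20 in the checkpoint, had 59.1, 66.2, 74.2 and 74.8 CPM in ID8-FSHR lavages, 31.9, 26.8, 23.7 and 24.1 CPM in ID8 lavages and 10.2, 10.5, 11.5 and 11.5 CPM in uninjected lavages. The groups were far apart (log2 1.36 over ID8, SE 0.11, edgeR adjusted p = 2.86e-05). Mad1l1, which brings Mad2l1 to kinetochores, had 22.4, 22.5, 24 and 27.1 CPM in ID8-FSHR lavages, 21.6, 22.5, 20.4 and 22.4 CPM in ID8 lavages and 14.9, 16.9, 14.2 and 17.1 CPM in uninjected lavages. The tumour groups overlapped (log2 0.14, SE 0.09, edgeR adjusted p = 0.299), and both lay above uninjected lavages. Ttk, the kinase also called Mps1 that starts the checkpoint, had 12.5, 21.3, 21.1 and 21.5 CPM in ID8-FSHR lavages, 7.49, 5.64, 4.64 and 4.50 CPM in ID8 lavages and 2.94, 1.96, 1.74 and 2.37 CPM in uninjected lavages. Replicate 1 lay far below the other ID8-FSHR libraries and still above all ID8 libraries, and the fold over ID8 was 3.42.

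All 4 genes of the chromosomal passenger complex rose in ID8-FSHR relative to ID8 lavages, at a median log2 fold change of 1.56. Aurkb, its kinase, had 27.9, 49.6, 43.1 and 50.6 CPM in ID8-FSHR lavages, 20.1, 16.2, 9.74 and 11.0 CPM in ID8 lavages and 8.78, 6.42, 6.83 and 7.34 CPM in uninjected lavages. The groups were separate, ID8 only just so from uninjected lavages (log2 1.58 over ID8, SE 0.23, edgeR adjusted p = 0.000985). Birc5, or survivin, which places the complex on the inner centromere, had 33.7, 46.0, 53.2 and 51.2 CPM in ID8-FSHR lavages, 16.7, 11.6, 8.19 and 9.65 CPM in ID8 lavages and 6.25, 3.08, 3.17 and 3.66 CPM in uninjected lavages. It was the gene with the third largest fold over ID8 lavages, 3.98. Cdca8, or borealin, rose 2.90-fold and the scaffold Incenp 2.14-fold, Incenp standing at 111 ± 18.5 CPM in ID8-FSHR lavages and 51.8 ± 3.97 CPM in ID8 lavages (SD, n = 4 each).

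Aurka, the Aurora kinase of the spindle poles, had 18.2, 27.6, 27.6 and 33.0 CPM in ID8-FSHR lavages, 9.89, 5.87, 5.30 and 6.04 CPM in ID8 lavages and 4.10, 2.18, 3.60 and 2.07 CPM in uninjected lavages. The groups did not overlap, with a log2 fold change over ID8 of 1.97 (SE 0.27, edgeR adjusted p = 0.00053). The shugoshin Sgo1 had 19.0, 19.0, 24.9 and 22.0 CPM in ID8-FSHR lavages, 8.31, 5.74, 7.29 and 5.60 CPM in ID8 lavages and 2.07, 1.25, 2.02 and 2.22 CPM in uninjected lavages. It rose 3.15-fold over ID8 lavages and Sgo2a 3.53-fold, although 35% of the exonic bases of Sgo2a overlap Kctd18 on the opposite strand, and no source used here gives the strand setting of the counting.

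A pair of genes carries a CENP symbol without belonging to the core kinetochore. Cenpj works in centriole growth and Cenpv was described at kinetochores and the spindle midzone in human cells. Cenpv had 13, 8.93, 15.8 and 14.9 CPM in ID8-FSHR lavages, 14.2, 11.2, 12.8 and 13.6 CPM in ID8 lavages and 4.03, 2.53, 2.89 and 3.38 CPM in uninjected lavages. Tumour groups overlapped (log2 0.02, SE 0.18, edgeR adjusted p = 0.949), and both were several times the uninjected level. Cenpj averaged 19.6 ± 4.17 CPM in ID8-FSHR lavages, 17.2 ± 2.23 CPM in ID8 lavages and 15 ± 0.809 CPM in uninjected lavages (SD, n = 4 each). Its difference between the tumour lavages did not pass the test (log2 0.19, SE 0.15, edgeR adjusted p = 0.423), but did without ID8-FSHR replicate 1 (log2 0.34, edgeR adjusted p = 0.0425).

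Relative to uninjected lavages, 42 of the 44 genes were higher in ID8-FSHR lavages, where 33.9% of all genes tested were called higher and 30.6% lower. The median log2 fold change was 2.69, against 0.00 over all genes tested, and in 40 genes the groups did not overlap, all higher, against 29.6% of all genes higher and 27.4% lower without overlap. Cenpm had the largest fold, 17.9 (log2 4.16, SE 0.28, edgeR adjusted p = 5.56e-08), followed by Cenpf at 13 and Ska1 at 12.8. Bub1 stood 11.6-fold, Birc5 11.4-fold and Sgo1 11.2-fold higher. At the other end Bub3 rose 1.23-fold (edgeR adjusted p = 0.00155). Cenpb and Cenpx did not pass the test, at log2 values of -0.06 (SE 0.06) and -0.03 (SE 0.12). No gene was called lower by edgeR, DESeq2 or limma-voom, nor by edgeR at an unadjusted p under 0.05. The calls on Cenpj (edgeR adjusted p = 0.0351) and Cenpo (0.0223) were the weakest. Cenpj lost its call with limma-voom (0.0784), with only the groups compared in the fit (0.0506) and with the replicate number as a block (0.0644). Leaving out ID8-FSHR replicate 3 or 4 or uninjected replicate 1, 2 or 3 also ended it, at 0.0621 to 0.101. Cenpo lost its call without ID8-FSHR replicate 3 (0.0628) or uninjected replicate 1 (0.0683). Without ID8-FSHR replicate 2 the count was again 42.

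In ID8 lavages, 34 of the 44 genes were higher than in uninjected lavages and 1, Cenpb, was lower, where 32.7% of all genes tested were called higher and 31.4% lower. This comparison shares the uninjected libraries with the last one. The median log2 fold change was 1.23, against -0.03 over all genes, and 32 genes lay wholly above and 1 wholly below the uninjected libraries, against 31.8% and 30.7% of all genes. Cenpm again had the largest fold, 4.93 (log2 2.30, SE 0.27, edgeR adjusted p = 7.95e-06), then Cenpk at 4.18. Spc24, an Ndc80 complex subunit, had 16.9, 21.8, 23.4 and 22.3 CPM in ID8-FSHR lavages, 9.39, 6.11, 6.27 and 5.34 CPM in ID8 lavages and 2.17, 0.978, 1.45 and 2.00 CPM in uninjected lavages, with a fold of 4.11 in ID8 lavages over uninjected ones. Mad2l1 rose 2.44-fold, Zwint 2.45-fold and Cenpv 4.04-fold. The 9 genes not called were Cenpa, Bub3, Incenp, Cenpj, Cenpl, Cenpo, Cenpq, Cenpt and Cenpx, of which 5 gained a call under another setting. Of these Cenpq was at -0.27 on the log2 scale (SE 0.13, edgeR adjusted p = 0.0925), Cenpx -0.26 (SE 0.13) and Cenpo -0.24 (SE 0.12).

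The lower Cenpb call in ID8 lavages was small and unstable. Its log2 fold change was -0.18 (SE 0.06, edgeR adjusted p = 0.0154). The call was lost with median-of-ratios size factors (0.077), with no filter on low counts (0.07), with only the groups compared (0.143), and without ID8 replicate 1 (0.0524), ID8 replicate 3 (0.0568) or ID8-FSHR replicate 2 (0.169). Cenpp lost its call in this comparison (edgeR adjusted p = 0.0279) without ID8 replicate 1 (0.0783), ID8 replicate 4 (0.0576), uninjected replicate 2 (0.0761) or uninjected replicate 3 (0.0796). Bub3 was called higher with DESeq2 (adjusted p = 0.0302), with median-of-ratios size factors (edgeR adjusted p = 0.0481), with only the groups compared (0.0261) and without ID8-FSHR replicate 2 (0.0323). Incenp was called higher with only the groups compared (edgeR adjusted p = 0.00906) and without ID8-FSHR replicate 1 (0.04) or 2 (0.0457), and Cenpj with only the groups compared (0.0278). Cenpq was called lower without ID8 replicate 1 (log2 -0.40, edgeR adjusted p = 0.0128) and Cenpo without uninjected replicate 1 (log2 -0.32, edgeR adjusted p = 0.036). Without ID8-FSHR replicate 2, which enters only through the shared spread and scaling, 36 genes were higher.

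**Figure D3:**
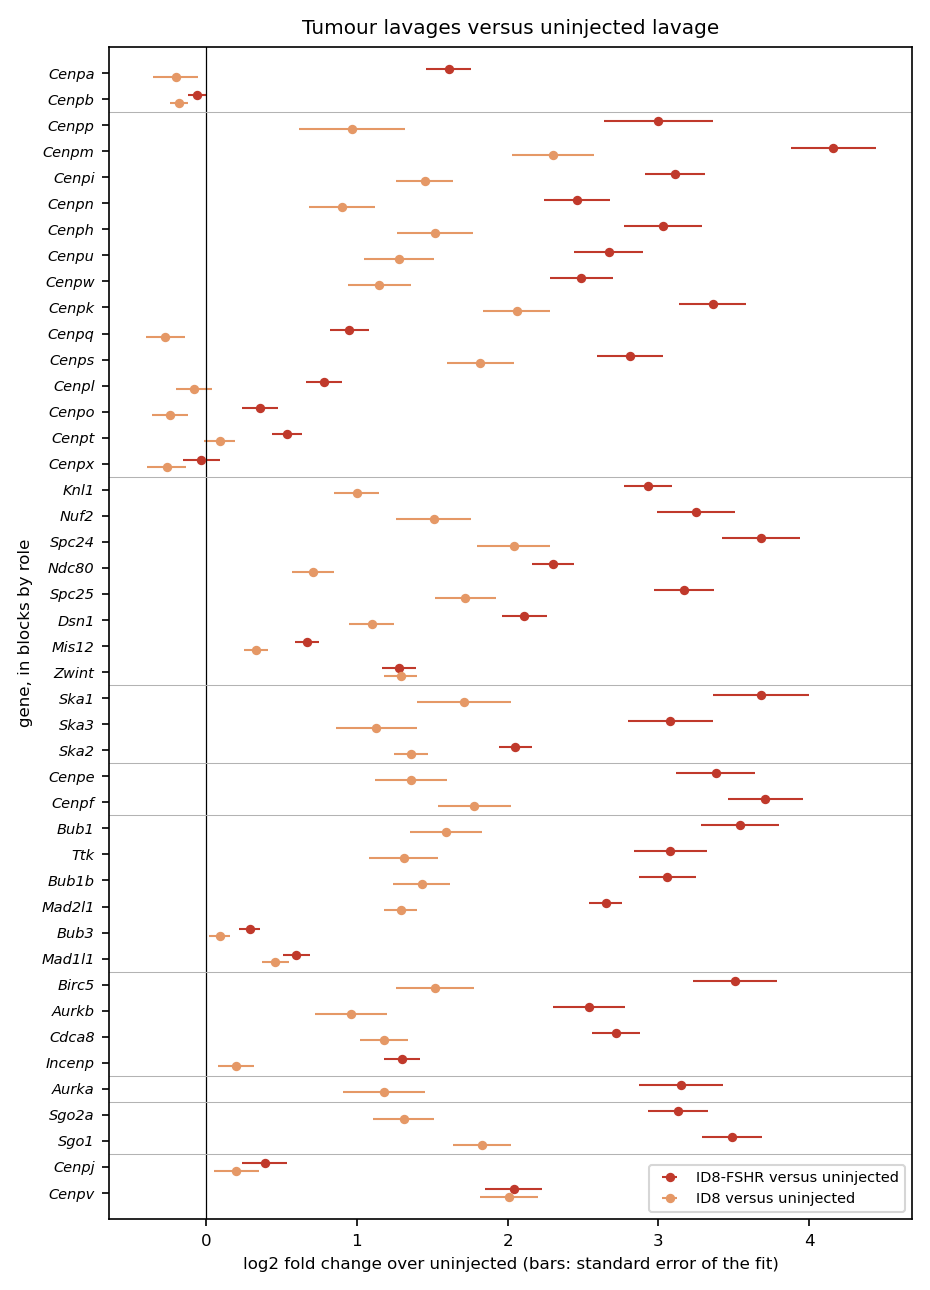
Points are log2 fold changes over uninjected lavages, red for ID8-FSHR and orange for ID8, with standard errors of the edgeR fit as bars and genes in blocks by role. Red points reach 4.16 (Cenpm) and orange points 2.30 (Cenpm), and the pair of points nearly coincides for Zwint (1.28 and 1.29) and Cenpv (2.04 and 2.01).

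The ratio of their counts was also taken within each library for 18 pairs of partners, which removes depth and scaling. The pairs were chosen with the fold changes above known, so the ratios describe those differences library by library and add no separate evidence. Bub1 counts were 0.584 of Bub3 counts in ID8-FSHR lavages (geometric mean, 0.447 to 0.665), 0.172 in ID8 lavages (0.128 to 0.232) and 0.0609 in uninjected lavages (0.0426 to 0.0769). Mad2l1 stood at 2.86 times Mad1l1 in ID8-FSHR lavages (2.64 to 3.10), 1.22 times in ID8 lavages (1.08 to 1.48) and 0.693 times in uninjected lavages (0.623 to 0.807). In both pairs the 3 groups were wholly separate.

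Knl1 relative to Zwint was 0.609 in ID8-FSHR lavages (0.467 to 0.816), 0.155 in ID8 lavages (0.125 to 0.183) and 0.192 in uninjected lavages (0.180 to 0.223), so only the ID8-FSHR libraries were set apart. Cenps relative to Cenpx was 0.334 in ID8-FSHR lavages, 0.196 in ID8 lavages and 0.0461 in uninjected lavages, with no overlap. Cenpt relative to Cenpw ran the other way, at 1.72 in ID8-FSHR lavages, 3.17 in ID8 lavages and 6.72 in uninjected lavages, again with no overlap.

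Some obligate partners kept close to a common ratio in the tumour lavages. Ndc80 relative to Nuf2 was 0.981 in ID8-FSHR lavages (0.826 to 1.11) and 1.09 in ID8 lavages (0.909 to 1.38), which overlapped, and 1.95 in uninjected lavages (1.16 to 2.34). Spc24 relative to Spc25 was 0.978 in ID8-FSHR lavages, 0.855 in ID8 lavages and 0.675 in uninjected lavages, with overlap between all groups. Cenph relative to Cenpk was 1.26 in ID8-FSHR lavages, 1.08 in ID8 lavages and 1.53 in uninjected lavages, also with overlap. By the highest library over the lowest, the ratios of these 3 pairs were the most spread in uninjected lavages.

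**Figure D4:**
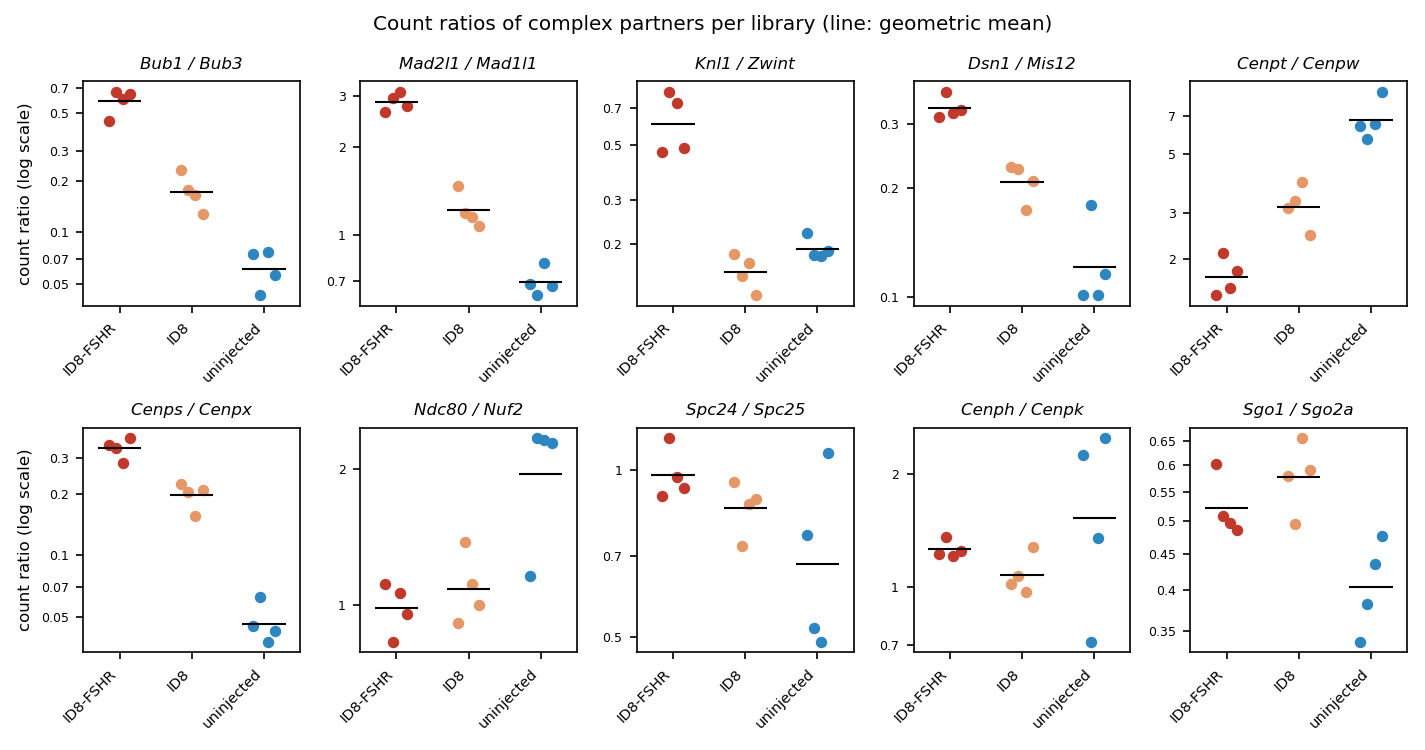
Each panel gives the ratio of counts of a pair of partner genes in each library on a log axis, with points for libraries and lines for geometric means. Bub1 to Bub3 and Mad2l1 to Mad1l1 separate all 3 groups, with ID8-FSHR libraries at 0.447 to 0.665 and 2.64 to 3.10, while Spc24 to Spc25 and Cenph to Cenpk overlap.

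Levels between genes can be compared per length, here as mean CPM per kilobase of merged exons in GENCODE M21, a length that also counts exons these cells may not use. The highest levels in ID8-FSHR lavages were those of Incenp at 25.6, Cenpb at 23.3, Zwint at 19.0 and Bub1b at 16.3 CPM per kilobase. In ID8 lavages the order was Cenpb at 21.4, Zwint at 19.2, Mis12 at 12.5 and Incenp at 12. In uninjected lavages it was Cenpb at 24.2, Cenpx at 12.3, Incenp at 10.4, Mis12 at 10.0, Bub3 at 9.12 and Zwint at 7.83. These last 6 genes, picked after their values were seen, held 4 of the 7 that were not called between ID8-FSHR and ID8 lavages. Bub1 stood at 10.7 CPM per kilobase in ID8-FSHR lavages, 2.77 in ID8 lavages and 0.920 in uninjected lavages, beside Bub3 at 11.2, 9.70 and 9.12 in the same order of groups. No length could be assigned to Cenpq.

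Other genes of the centromere, kinetochore and checkpoint that are not among the 44 moved alike, with 20 of 22 higher in ID8-FSHR than in ID8 lavages and a median log2 fold change of 1.35. Of all genes tested, 6.04% were called higher there. Kif2c, a kinesin that takes microtubules apart at the centromere, averaged 28.7 ± 6.84 CPM in ID8-FSHR lavages and 7.45 ± 2.32 CPM in ID8 lavages (SD, n = 4 each). Plk1, a mitotic kinase, averaged 36.1 ± 6.89 and Cdc20, the checkpoint's target, 38.9 ± 7.27 CPM in ID8-FSHR lavages, against 9.67 ± 2.60 for Plk1 and 10.5 ± 2.14 CPM for Cdc20 in ID8 lavages. All 3 rose, at log2 1.94, 1.90 and 1.89. At the other end, Zw10 of the complex that recruits dynein rose by log2 0.33 (SE 0.10, edgeR adjusted p = 0.0454). Mad2l1bp, which ends the checkpoint, had a log2 value of 0.18 and Itgb3bp, or CENP-R, 0.13, and neither was called. Relative to uninjected lavages 18 of the 22 were higher in ID8-FSHR lavages (median log2 2.39), and 13 were higher and 1, Mis18a, lower in ID8 lavages (median 0.88). Of all genes tested, 33.9% were called higher in ID8-FSHR lavages, and 32.7% higher and 31.4% lower in ID8 lavages.

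The anaphase promoting complex, which the checkpoint restrains, moved little in comparison. Of its 17 genes 6 were higher and 1 lower in ID8-FSHR than in ID8 lavages, with a median log2 fold change of 0.07. Among all genes tested the shares were 6.04% and 5.56%. Ube2c and Ube2s, the ubiquitin-conjugating enzymes that work with it, were higher by log2 2.02 and 0.54, and its subunit Anapc5 by 0.36. Anapc16 was lower by log2 -0.31 (SE 0.08, edgeR adjusted p = 0.0349). Anapc13 at -0.15 and Anapc15 at -0.07 were not called. In ID8-FSHR lavages 10 of the 17 were higher than in uninjected lavages (median log2 0.30), and in ID8 lavages 9 were (median 0.18). Among all genes tested the shares higher were 33.9% and 32.7%.

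Of 13 genes of cohesin, its loaders and separase, 6 were higher in ID8-FSHR than in ID8 lavages, with a median log2 fold change of 0.25. The share of all genes tested was 6.04%. The acetyltransferase Esco2 rose by log2 1.83, the cohesin stabiliser Cdca5, or sororin, by 1.73, and separase, Espl1, by 0.87. The separase inhibitor Pttg1 at -0.20, the loader Nipbl at -0.02 and the subunit Stag1 at 0.06 were not called. Relative to uninjected lavages 7 of the 13 were higher and 4 lower in ID8-FSHR lavages, and 5 higher and 4 lower in ID8 lavages. Among all genes tested, 33.9% were higher and 30.6% lower in ID8-FSHR lavages, and 32.7% higher and 31.4% lower in ID8 lavages. The ID8 counts lie near these shares.

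Sums of cell type markers also differed between groups, but several of them overlapped. The 12 mesothelial and ovarian surface markers summed to 991 to 2550 CPM in ID8-FSHR lavages, 2880 to 3620 CPM in ID8 lavages and 21.1 to 24.1 CPM in uninjected lavages. Defb29 and Vegfa, named on both line labels, summed to 46.0 to 99.7 CPM in ID8-FSHR and 73.6 to 87.4 CPM in ID8 lavages. Their uninjected sums were 1.54 to 2.51 CPM. Neither gene was called between the tumour groups, at log2 -0.50 for Defb29 and 0.25 for Vegfa. The 5 NK cell markers had sums of 13.7 to 67.6 CPM in ID8-FSHR lavages, 6.19 to 17.3 CPM in ID8 lavages and 10.2 to 16.6 CPM in uninjected lavages. The 10 T cell markers had sums of 80.4 to 163 CPM in ID8-FSHR lavages, 55.4 to 59.5 CPM in ID8 lavages and 65.3 to 192 CPM in uninjected lavages. Summed B cell markers were 318 to 556 CPM in ID8-FSHR lavages, 366 to 523 CPM in ID8 lavages and 2860 to 3750 CPM in uninjected lavages. Sums of dendritic, mast, neutrophil and monocyte markers were below the uninjected mean in both tumour groups, and erythroid sums ran from 0.71 to 376 CPM with no order by group. Single markers in these lists went both ways. Zbtb46 (dendritic), Kit (mast) and Gata6 (macrophage) were called higher than uninjected in both tumour groups, and Ly6c2, Cx3cr1 (monocyte) and Retnlg (neutrophil) in ID8-FSHR lavages. The mean neutrophil sum of uninjected lavages, 220 CPM, was mostly Csf3r at 201 CPM, the only neutrophil marker called lower.

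**Figure D5:**
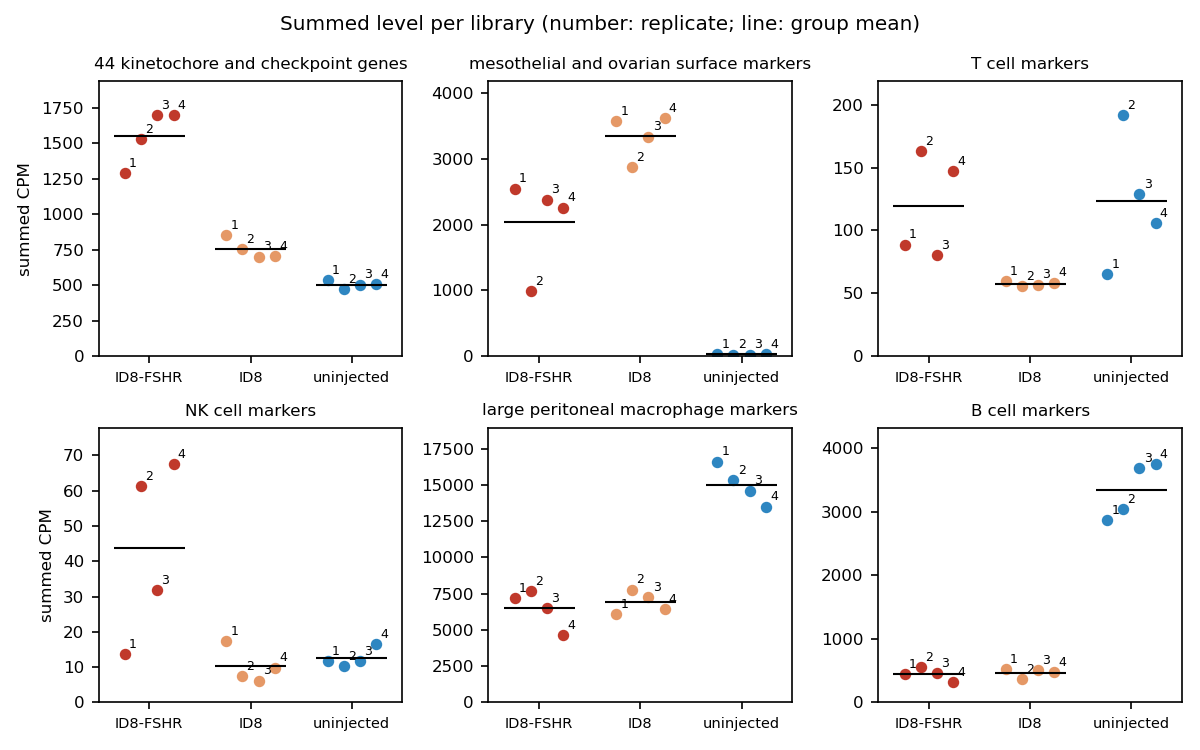
Each panel gives the summed CPM of a gene list in each library, with numbers for replicates and lines for group means. The 44 kinetochore and checkpoint genes sum highest in the ID8-FSHR libraries (1290 to 1700 CPM), mesothelial and ovarian surface markers in the ID8 libraries (2880 to 3620 CPM), and macrophage and B cell markers in the uninjected libraries.

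Within groups the genes tended to share their extremes. ID8-FSHR replicate 1 was the lowest library of its group for 32 of the 44 genes, and ID8 replicate 1 the highest of its group for 33. Among uninjected libraries replicate 1 was highest for 24 genes and replicate 2 lowest for 25. ID8-FSHR replicate 1 also had the lowest NK cell sum of its group, 13.7 CPM against 31.9 to 67.6 CPM in the other 3, and ID8 replicate 1 the highest of its own, 17.3 CPM against 6.19 to 9.89 CPM. In other lists ID8-FSHR replicate 1 was extreme in its group as well. It had the highest mesothelial and ovarian surface sum, 2550 CPM, and the highest mast and dendritic cell sums, 861 and 43.0 CPM. Its sum of Defb29 and Vegfa, 99.7 CPM, was the highest too, and its monocyte sum, 403 CPM, the lowest. Uninjected replicate 2, the lowest of its group in the summed kinetochore level, had the highest T cell sum there. Other sums ran differently. ID8-FSHR replicate 3, at 1700 CPM over the 44 genes, had the lowest T cell sum of its group, 80.4 CPM. Uninjected replicate 1 had an NK cell sum of 11.6 CPM, below 16.6 CPM in replicate 4. A link between these sums was not tested. Leaving out ID8-FSHR replicate 1 gave 39 genes higher than in ID8 lavages, and leaving out ID8 replicate 1 gave 37. The median coefficient of variation over the 44 genes was 16.5% in ID8-FSHR lavages, 17.9% in ID8 lavages and 20.6% in uninjected lavages.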

How the data were processed

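The authors deposited whole-number read counts of 55401 Ensembl genes in 12 libraries, not normalized as far as the labels and values show. Libraries were made after ribosomal RNA depletion from 100 ng RNA, per the labels' protocols. The submitters' processing notes name bcl2fastq 2.20, STAR 2.7.9a, featureCounts of Subread 1.6.4 and the build GRCm38.p6. Whether counting used strand, how multimapping reads were handled and which annotation release was used were not given in the sources used here, so counts of overlapping genes are uncertain.

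Groups and replicate numbers came from the labels, and replicates differed by more than sampling noise in every within-group pair. All 12 libraries entered 1 robust edgeR 4.0.16 quasi-likelihood fit (R 4.3.3), with the group as the only term, TMM scaling and edgeR's default filter, which left 16915 genes, among them all 44 described. P-values were adjusted by Benjamini-Hochberg over all genes tested, and genes with an adjusted p under 0.05 are called. CPM uses effective library sizes, and a count of 0 allows up to 3 counts, or 0.0444 to 0.0653 CPM, which covers counting error only.

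Alternatives were median-of-ratios size factors, DESeq2 1.42.0, limma-voom (limma 3.58.1), no filter on low counts, at least 1 CPM in at least 4 libraries, only the groups compared, a replicate block, leaving out the 10 most abundant genes, a threshold of 0.01 and leaving out each library. Exonic lengths and overlaps came from GENCODE M21, matched by versioned identifier for 43 of the 44 genes. Promoter windows came from RefSeq, found by symbol for 40 genes.

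The 44 genes, the role, pathway and marker lists and the partner pairs were chosen with earlier results of these data known. By rule, values in every library are given for 14 listed genes and for the 3 largest and 3 smallest log2 fold changes in each comparison, and each pathway list has its 3 largest and 3 smallest for ID8-FSHR over ID8 named. Mis18a, the only gene of its list called lower in ID8 lavages, was named after its value was seen.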

Additional observations from a re-analysis of the deposited data

Results flagged for a closer look

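Among 165 sets of 4 libraries checked (each gene, each role sum and the total, in each group), 11 had a library far from the other 3. Chance gives about 1 in 20 for independent sets, but these sets share libraries and the sums repeat their genes. All 11 fell on replicate 1 of the ID8 or the ID8-FSHR group.

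In ID8-FSHR replicate 1, 4 genes were far below the other ID8-FSHR libraries. Cdca8 had 20.5 CPM against 28.5 to 29.7 CPM, Ttk 12.5 against 21.1 to 21.5 CPM, Cenpj 13.4 against 21.2 to 22.6 CPM and Incenp 83.4 against 117 to 122 CPM. The summed chromosomal passenger complex was 165 CPM there, against 241 to 253 CPM in the other 3.

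In ID8 replicate 1, 3 genes were far above the other ID8 libraries. Nuf2 had 14 CPM against 8.19 to 8.89 CPM, Bub1b 27.3 against 20.8 to 21.2 CPM and Aurka 9.89 against 5.30 to 6.04 CPM, Aurka being also the only gene of the spindle pole kinase sum. The summed outer kinetochore network was 199 CPM there, against 170 to 175 CPM in the other 3, and the sum of Cenpj and Cenpv 34.4 CPM, against 28.6 to 28.8 CPM.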

How the results depend on the processing

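The count of genes higher stayed within 1.5 times its main value under every alternative, at 35 to 39 for ID8-FSHR over ID8, 40 to 42 for ID8-FSHR over uninjected and 33 to 37 for ID8 over uninjected lavages. Leaving out 1 library at a time gave 35 to 39, 40 to 42 and 33 to 36. No gene was called lower in ID8-FSHR lavages in either comparison under any alternative. The single gene lower in ID8 than in uninjected lavages (Cenpb) became 0 with median-of-ratios size factors, with no filter, with only the groups compared and at a threshold of 0.01, and leaving out 1 library gave 0 to 2. It was 0 without ID8 replicate 3 or ID8-FSHR replicate 2 and 2 (Cenpb and Cenpo) without uninjected replicate 1. Without ID8 replicate 1 it was 1, but that gene was Cenpq and not Cenpb. Of 2640 single-gene alternatives 2587 kept direction and call, 24 lost the call, 14 gained it and 15 turned the sign, none of a gene called in that comparison.

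The sign turned as follows, in log2 fold changes. For ID8-FSHR over ID8, Zwint was 0.00 with only the groups compared, 0.01 without ID8 replicate 1 and 0.10 without ID8-FSHR replicate 2, in a range of -0.14 to 0.10 over single libraries left out. In the same comparison Cenpv was -0.01 with limma-voom, -0.04 without ID8 replicate 2, -0.07 without ID8-FSHR replicate 3 and -0.04 without ID8-FSHR replicate 4, in a range of -0.07 to 0.19. For ID8-FSHR over uninjected, Cenpb was 0.04 without ID8-FSHR replicate 2 (range -0.07 to 0.04), and Cenpx was 0.01 with median-of-ratios size factors, 0.01 with DESeq2, 0.02 without ID8-FSHR replicate 1 and 0.04 without ID8-FSHR replicate 4 (range -0.07 to 0.04). For ID8 over uninjected, Cenpl was 0.01 with only the groups compared, without ID8 replicate 4 and without ID8-FSHR replicate 2, in a range of -0.14 to 0.01. The cause was not tested.

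Deviations of same-numbered libraries from their group means had correlations of -0.217 to 0.352, and those of differently numbered libraries -0.334 to 0.334. With so few libraries in a group, these values cannot show whether the numbers pair the samples. With the replicate number as a block 37, 41 and 34 genes were higher in the 3 comparisons, and 0, 0 and 1 lower. Depth limits the lowest genes most: Cenpm, Cenps and Ska1 were under 1 CPM in every uninjected library. No scaling moved the median of all genes by more than 0.1.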
